A study of Caenorhabditis elegans with 21 samples.

Results

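Small RNAs of whole Caenorhabditis elegans larvae that carry DPF-3 S784A, in which the peptidase DPF-3 has 1 altered residue, were compared with those of wild type. The comparison used 9 of the 21 libraries of the series, 3 of DPF-3 S784A (A to C) and 6 of wild type (A to F). All 75393 features of the count table entered, 20134 genes and 55259 genomic intervals without a gene name, and 22641 of them had a count in these libraries. Worms of both groups were L4 larvae kept at 15 °C on peptone rich plates with NA22 bacteria, and the labels give no other allele, strain or treatment. A dpf-3 null mutant (3 libraries, same stage and temperature) was set beside DPF-3 S784A, and wild type G to I (3 libraries) served as a second set of controls. Small RNAs were treated with an RNA 5′ polyphosphatase, so that those with a 5′ triphosphate could enter the QIAseq miRNA libraries, and were sequenced on an Illumina HiSeq. Nothing in the labels says that replicates came from separate cultures, so p-values measure the spread between these libraries.

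DPF-3 belongs to the dipeptidyl peptidase IV family, serine peptidases that remove a dipeptide from the amino end of a protein when its second residue allows it. S784 is the active-site serine, so S784A leaves the protein without the residue that carries out the cut, whereas a null lacks the protein. The title of the series is about proteases that process Argonautes, and DPF-3 is known to trim the amino ends of WAGO-1 and of WAGO-3, the product of ppw-2. Many worm Argonautes bind antisense 22G RNAs that RNA-dependent RNA polymerases make. The WAGO group silences transposons, pseudogenes, unnamed loci and some genes, CSR-1 accompanies genes expressed in the germline, and ERGO-1 uses 26G RNAs at duplicated genes of recent origin. In whole-worm RNA, fewer cells of a type and less small RNA per cell cannot be told apart.

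Counts in features came to 95708, 62715 and 113444 in DPF-3 S784A and to between 233040 and 472767 in wild type A to F. A value of 3 counts in a library therefore stood for 19.1 to 33.8 CPM (counts divided by library size, here after scaling by the trimmed mean of M values, TMM) in DPF-3 S784A and 7.40 to 15.4 CPM in wild type. Over features with at least 10 counts in a pair, every pair of libraries within a group differed by more than counting noise. The 3 and 6 libraries were therefore kept. Small RNA counts of dpf-3 (chromosome I of ce11, 6838354 to 6843343, plus strand) were 81.1, 89.99 and 115 CPM in DPF-3 S784A. In wild type they ran from 61.6 to 96.0 CPM, with a median of 72.5. The groups overlapped, and the difference did not pass the test (log2 fold change 0.39, SE 0.29, adjusted p = 0.249). These are small RNAs counted at dpf-3, not a measure of its messenger RNA, so they do not check the mutation.

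Feature counts of DPF-3 S784A lay less in unnamed intervals and more in genes. Intergenic intervals held 3.55%, 3.57% and 3.68% of feature counts in the 3 DPF-3 S784A libraries, against 7.71% to 7.81% in wild type. Intronic intervals held 1.72% ± 0.0356 in DPF-3 S784A and 4.18% ± 0.0778 in wild type (SD, n = 3 and 6), and intervals that overlap an exon held 3.50% ± 0.0650 in DPF-3 S784A and 9.68% ± 0.140 in wild type. Protein-coding genes held 87.8% ± 0.204 in DPF-3 S784A and 74.5% ± 0.315 in wild type, and pseudogenes 3.35% ± 0.128 and 3.78% ± 0.147. For each of the 8 measures tested, no DPF-3 S784A library lay within the range of wild type. Each then had an exact 2-sided permutation p of 0.0238, the smallest that 84 splits allow, and the same value after adjustment over the 8 measures. Against wild type G to I, where the smallest possible p is 0.1, pseudogenes held 0.33 percentage points more of the counts in DPF-3 S784A, and the 100 highest features 5.89 points more, the opposite direction to that against A to F.

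Those shares are parts of a smaller whole in DPF-3 S784A. Reads in no feature made up 82.1%, 82.9% and 81.7% of all reads counted in DPF-3 S784A and 67.3% to 71.3% in wild type. Of all reads counted, protein-coding genes therefore held 15.6% ± 0.542 in DPF-3 S784A and 23.1% ± 1.25 in wild type, the opposite order to their share of feature counts. Intervals together held 1.57% ± 0.0588 of all reads in DPF-3 S784A and 6.70% ± 0.384 in wild type, and pseudogenes 0.594% ± 0.0122 and 1.17% ± 0.0770. Wild type G to I had 37.3% ± 0.305 of all reads in protein-coding genes and 53.5% ± 0.431 in no feature. In these measures the wild-type sets lay farther apart than DPF-3 S784A and A to F. In intervals (7.62% ± 0.145 in G to I) and pseudogenes (1.40% ± 0.0327) they lay closer. The 100 highest features of each library took 36.4% ± 0.318 of feature counts in DPF-3 S784A and 40.1% ± 0.525 in wild type. At a common depth of 62715 counts, 8229 to 8272 features were seen in DPF-3 S784A and 7337 to 7845 in wild type.

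**Figure D1:**
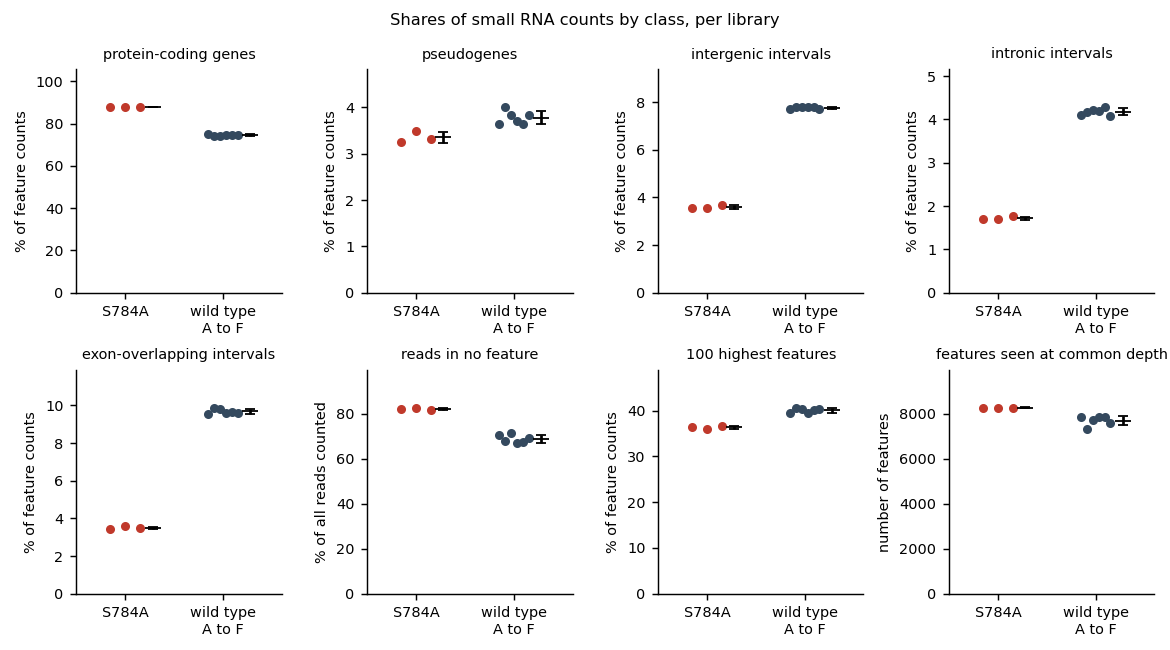
Share of counts in each class for the 3 DPF-3 S784A libraries and the 6 wild-type libraries (points, 1 per library; bars, mean and SD), with reads in no feature as a percent of all reads counted and features seen at 62715 counts as a number. In every panel the DPF-3 S784A points lie wholly above or below those of wild type, for example 3.55% to 3.68% in intergenic intervals against 7.71% to 7.81%.

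Of 3804 features tested, 811 (21.3%) rose and 1340 (35.2%) fell in DPF-3 S784A at an adjusted p under 0.05 (edgeR quasi-likelihood test, Benjamini-Hochberg over all features). The median log2 fold change was 0.11 over all features tested. The highest was 2.48, and the lowest, -8.76, was fitted at an interval with no count in DPF-3 S784A and depends on the prior count. Without library C of DPF-3 S784A 434 features rose. The split depends on scale. TMM set the effective library size of DPF-3 S784A up by factors of 1.38 to 1.42 and that of wild type down by 0.832 to 0.858. With libraries scaled to their feature totals 2074 features rose and 1120 fell around a median of 0.84, and scaled to all reads counted 616 rose and 1358 fell around a median of 0.04. Scaled to feature totals, 42 of the 1340 falls turned sign and 13 of these were called higher. With wild type G to I as controls, 873 rose and 1183 fell. Of the 1340 features that fell against A to F, 847 also fell against G to I, and of the 811 that rose 476 also rose. Opposite signs were seen at 64 features called in both.

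Of 3215 protein-coding genes tested, 791 (24.6%) rose and 845 (26.3%) fell (median log2 fold change 0.27), which is the background for lists of genes. Of 542 intervals tested, 17 rose and 469 fell (median -2.52). Intergenic, intronic and exon-overlapping intervals had like medians of -2.52, -2.62 and -2.44. A feature entered the test with enough counts, before TMM scaling, in 3 libraries, and 329 of the 542 intervals had them in wild type alone. For those the filter favoured a fall. Among the 189 intervals past that level in at least 3 libraries of each group, 149 fell and 11 rose, with a median of -1.85. Among the 1708 coding genes of that kind, 314 fell and 531 rose, with a median of 0.34.

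**Figure D2:**
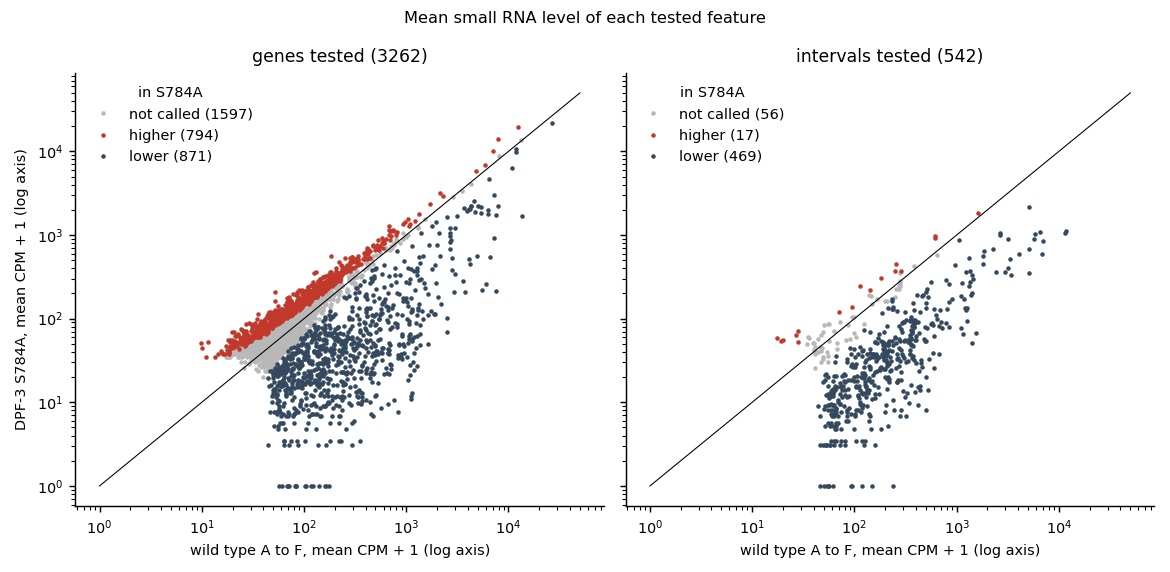
Mean CPM plus 1 of each tested feature in DPF-3 S784A (vertical) and wild type A to F (horizontal), both on log axes, for 3262 genes and 542 intervals; the line marks equal levels and colours mark the calls. Genes form a narrow band along the line with a wide cloud below it, and 469 of the 542 intervals are called below the line.

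Neighbouring intervals on chromosome V were among the largest falls in CPM. The interval at 17137383 to 17141676 (minus strand), which overlaps the microRNA gene mir-257, had 1202, 1069 and 1058 CPM in DPF-3 S784A. Wild type had 11279 to 12717 CPM (median 11642), and the log2 ratio was -3.40 (SE 0.09, adjusted p = 1.9e-82). Its neighbour at 17132108 to 17137381, which overlaps Y102A5D.22, had 1068 ± 69.7 CPM in DPF-3 S784A and 11351 ± 472 in wild type (log2 fold change -3.42). The next interval, 17142308 to 17143636, fell by 2.58 on the log2 scale, and one before them, 17126624 to 17128176, by 3.92 on 5 counts in DPF-3 S784A. Farther along the same chromosome, the intergenic interval at 17421682 to 17428709 had 516, 652 and 606 CPM in DPF-3 S784A against 6531 to 7130 in wild type. On chromosome IV the interval at 913372 to 921243, which overlaps F58H7.5, had 857 ± 55.9 CPM in DPF-3 S784A and 7035 ± 180 in wild type (log2 fold change -3.03). Of the 8 largest falls in CPM 4 were these intervals, 3 on chromosome V and the one on chromosome IV.

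Some intervals had no count left. Intergenic sequence on chromosome III at 6630737 to 6631713 had no count in any DPF-3 S784A library and 185 to 266 CPM in wild type (398 counts). Set against 3 counts over the DPF-3 S784A group, it was at least 30.7-fold lower there. Intervals on IV at 15556849 to 15557985, on X at 7365534 to 7365718 and on I at 85296 to 85362 were likewise at 0 in the 3 DPF-3 S784A libraries, at least 18.4-fold, 15.0-fold and 11.6-fold lower. The intergenic V:791402-797900 kept some counts, with 349 ± 72.1 CPM in DPF-3 S784A and 5046 ± 201 in wild type (log2 fold change -3.88). The intronic intervals with the smallest p lay in C03A7.13 (V:5185266-5189607, 591 ± 54.3 CPM in DPF-3 S784A and 4046 ± 187 in wild type) and in fbxa-192 (V:17641680-17648678, 391, 394 and 421 CPM in DPF-3 S784A and 3177 ± 92.6 in wild type).

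Intervals were also split by length, after the values were seen. Of 172 intervals of 1001 to 2000 bases 170 fell, and of 89 intervals of 2001 to 5000 bases 88 fell. Falls were fewer above 5000 bases, with 25 of 37 lower and 2 higher. Of the 30 of these past the level of the filter in both groups 22 fell and 1 rose. Among 29 intervals of at most 100 bases 12 fell and 8 rose, with a median log2 fold change of 0.06. Among those past the level of the filter in both groups, 46 of 47 intervals of 1001 to 2000 bases fell, and of 10 intervals of at most 100 bases 5 rose. Between these lengths the falls were fewer. Of 9 such intervals of 101 to 200 bases 4 rose and 3 fell (median 0.35). Of 13 of 201 to 500 bases 1 rose and 5 fell (median -0.55), and of 20 of 501 to 1000 bases 14 fell (median -1.37). Most of the 8 short rises were on X. Of the 11 tested X intervals of 90 to 100 bases 7 rose, and all 11 had a positive log2 fold change, while of the other 71 X intervals 1 rose and 61 fell. The one at X:17400536-17400628 had 51.6, 56.2 and 63.8 CPM in DPF-3 S784A against 5.12 to 22.8 CPM in wild type (log2 fold change 1.68, SE 0.41, adjusted p = 0.000212). Its neighbour at X:17399918-17400010 had 62.2 ± 17.3 CPM in DPF-3 S784A and 25.9 ± 9.50 in wild type. These intervals and X:17075554-17075646, also among the 7, were below the level of the filter in every wild-type library. They passed through DPF-3 S784A alone, so the filter favoured a rise. Intervals of 1 length may be copies that share reads, so their counts are uncertain. The 2 other largest interval rises were V:13135215-13135930, which overlaps the C-type lectin gene clec-41 (log2 fold change 1.58), and III:971060-971258 in an intron of WBGene00019912 (1.57). Each rests on 22 or fewer counts in DPF-3 S784A, and each also passed the filter through DPF-3 S784A alone. Without library A of DPF-3 S784A the first no longer passed (adjusted p = 0.063).

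**Figure D3:**
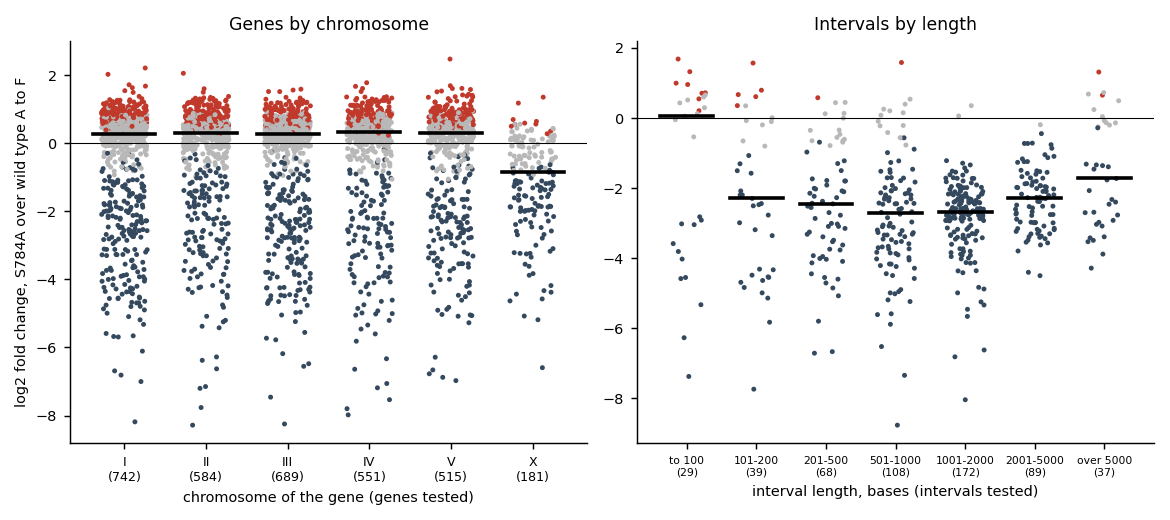
Log2 fold change of DPF-3 S784A over wild type A to F for tested genes by chromosome (left) and tested intervals by length (right); each point is a feature, coloured by its call as in the plot of mean levels, and bars are medians. Gene medians lie between 0.26 and 0.34 on the 5 autosomes and at -0.85 on X, and the interval median is 0.06 up to 100 bases and between -2.72 and -1.73 in the longer classes. Over intervals past the level of the filter in both groups, which are not marked, it is 0.35 at 101 to 200 bases and -0.55 at 201 to 500.

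Some intervals inside introns fell where the gene itself did not. A tested gene hosted 37 of the tested intronic intervals, in 31 genes. Of these, 21 intervals in 16 genes fell while the gene was not called, and 15 fell together with their gene. Of all 143 tested intronic intervals 104 passed the filter through wild type alone, which favours a fall. Of the 33 past its level in both groups 28 fell and 0 rose. The 37 with a tested host gene were not split in this way. An interval within imb-2, which encodes an importin beta family protein, had 50.3 CPM in DPF-3 S784A and 1397 CPM in wild type (log2 fold change -4.88), while imb-2 itself had 180 and 146 CPM in that order (adjusted p = 0.201). In zim-1, a zinc-finger gene of meiotic pairing centres, the longer of its 2 intervals had 192 CPM in DPF-3 S784A and 1391 CPM in wild type, and the gene had 71.6 and 65.5 CPM. Intervals in the mediator gene mdt-17 and the poly(ADP-ribose) polymerase gene parp-1 had log2 fold changes of -3.98 and -4.12. The gene values of 0.06 and -0.20 did not pass the test. Both intervals, at means of 16.3 and 5.88 CPM in DPF-3 S784A, passed the filter through wild type alone. The one in parp-1 lies on the strand opposite to the gene. Of the 25 exon-overlapping intervals that fell in a tested gene, 23 lay in a gene that also fell.

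Genes silenced by WAGO Argonautes lost small RNAs. The list held 8 such genes, of which saeg-2, C38D9.2 and B0261.8 were already known to be low from earlier results on these libraries, so its direction is not independent evidence. Of the 8 all fell, and 3 of them passed the filter through wild type alone. The other 5 had a median of -2.68, against 0.26 over all features past that level in both groups. saeg-2, named as a suppressor of activated egl-4, had 162, 292 and 172 CPM in DPF-3 S784A against 3437 to 3980 CPM in wild type (log2 fold change -4.24, SE 0.13, adjusted p = 4.56e-73). C38D9.2 had 420, 484 and 427 CPM in DPF-3 S784A and 3870 to 4408 in wild type, and bath-45, which is also in the MATH and BTB list, had 1860 ± 42.2 CPM in DPF-3 S784A and 4711 ± 324 in wild type. In the same list xol-1, the switch gene of sex determination and dosage compensation, had 0, 22.5 and 19.1 CPM in DPF-3 S784A against 59.2 to 77.4 CPM in wild type (log2 fold change -2.33). B0261.8 had 7.37, 22.5 and 6.38 CPM in DPF-3 S784A against 979 to 1220 CPM in wild type. All 8 also fell under each of the 3 other scalings tried, and the 7 that were tested against wild type G to I fell there.

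The genes with the largest falls in CPM came from several chromosomes. F15D4.5 had 1511, 1721 and 1881 CPM in DPF-3 S784A against 12196 to 14872 CPM in wild type (log2 fold change -2.97, SE 0.08, adjusted p = 5.82e-77). F59C12.4, a gene of 150 bases on X, had 177, 259 and 198 CPM in DPF-3 S784A and 6811 to 8702 in wild type, a log2 fold change of -5.18. rnh-1.3, of the ribonuclease H family, had 538 ± 79.9 CPM in DPF-3 S784A and 6571 ± 642 in wild type (log2 fold change -3.64). In each of these genes every DPF-3 S784A library lay below every wild-type library, as the rule that names them asks. The pseudogene WBGene00012577 (I:13779779-13781402) was of the same kind, with 288, 236 and 255 CPM in DPF-3 S784A and 5351 to 7022 in wild type.

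Counts were lost altogether at some genes. The cuticle collagen col-38 had no count in DPF-3 S784A and 131 to 210 CPM in wild type, at least 21.8-fold lower. Also at 0 in the 3 libraries were H14A12.5, the F-box gene fbxb-56, exc-9 (a LIM protein of the excretory canal), Y94H6A.7, the lincRNA Y48C3A.1, F49E11.2 and R10E4.3, with bounds of at least 21.5-fold, 20.4-fold, 17.7-fold, 15.7-fold, 15.4-fold, 12.97-fold and 12.3-fold lower. Their wild-type medians ran from 98.0 to 177 CPM. Bounds of this kind are set by the depth of DPF-3 S784A, and cover counting error only.

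Of all 198 pseudogenes, 42 were tested, of which 24 fell and 3 rose (median -0.75). Among the 28 past the level of the filter in both groups 14 fell and 2 rose. WBGene00009511 (II:11171743-11175479) had 2388, 1991 and 2263 CPM in DPF-3 S784A and 7483 to 8273 in wild type. Set against wild type G to I, 13 pseudogenes rose and 21 fell, and scaled to feature totals 14 rose and 16 fell.

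Small RNAs counted at genes of the pathway itself were tested next. Of 12 tested Argonaute genes 7 rose and 0 fell by edgeR (median 0.42), with 0 lower at an unadjusted p under 0.05 and 0 lower by DESeq2 or limma-voom. Levels of ppw-2 were 1135, 1181 and 988 CPM in DPF-3 S784A against 628 to 764 CPM in wild type (log2 fold change 0.62, SE 0.10, adjusted p = 2.27e-08). wago-1 had 280, 180 and 236 CPM in DPF-3 S784A and 105 to 175 CPM in wild type (log2 fold change 0.89, SE 0.20, adjusted p = 6.46e-05), and its groups did not overlap. hrde-1, the nuclear Argonaute of inherited silencing, had 1141 ± 222 CPM in DPF-3 S784A and 737 ± 59.6 in wild type. The Piwi gene prg-1, one of the 8 largest rises in CPM, had 2933 ± 368 CPM in DPF-3 S784A and 2267 ± 185 in wild type (log2 fold change 0.37). csr-1, wago-4 and rde-1 also rose, by log2 fold changes of 0.41, 0.42 and 0.98. ergo-1, which binds 26G RNAs, had 39.5 ± 15.6 CPM in DPF-3 S784A and 42.5 ± 11.8 in wild type and was not called. With G to I as controls 8 of 12 rose, and against all 9 wild-type libraries 3 of 12 did.

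Among 28 tested amplification and RNAi factors 11 (39.3%) rose and 4 (14.3%) fell (median 0.39). Scaled to all reads counted, 5 rose and 4 fell, and against all 9 wild-type libraries 5 of 30 rose and 2 fell. eri-3 of the ERI/Dicer complex had 221 ± 25.8 CPM in DPF-3 S784A and 89.0 ± 28.2 in wild type, and drh-1, a RIG-I related helicase, had 221 ± 46.8 and 93.9 ± 15.5 in that order. Both large falls came from 1 locus on chromosome I. eri-6, whose transcript is joined to that of eri-7 to give a helicase, had 1592, 1856 and 1747 CPM in DPF-3 S784A against 7238 to 7934 in wild type (log2 fold change -2.14). sosi-1 lies within the span of eri-6 on the other strand and had 147, 135 and 159 CPM in DPF-3 S784A against 2039 to 2411 in wild type (log2 fold change -3.88). The strand setting of the counting is not given in the sources used here, so reads of these overlapping genes cannot be told apart. The other falls were small: parn-1, the trimmer of piRNA ends, had a log2 fold change of -0.40 and the helicase gene rde-12 of -0.45, with overlapping groups. Scaled to feature totals both turned sign, to 0.34 for parn-1, which was called, and 0.28 for rde-12.

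Of 30 tested germline and maternal genes 19 rose and 1 fell (median 0.59), and of 19 tested P granule and germline RNA proteins 7 rose and 1 fell (median 0.47). The cell cycle kinase gene cdk-1 had 1194, 900 and 1211 CPM in DPF-3 S784A against 592 to 751 in wild type (log2 fold change 0.68). car-1, an RNA-binding protein of P granules, had 1224, 1125 and 1096 CPM in DPF-3 S784A and 532 to 842 in wild type (0.77 on the log2 scale). Past the level of the filter in both groups, 18 of 27 germline and maternal genes and 6 of 14 P granule genes rose. The 2 genes that fell were par-2 and meg-4. par-2, the RING protein of embryonic polarity, had 170, 101 and 153 CPM in DPF-3 S784A against 972 to 1117 CPM in wild type (log2 fold change -2.83), and meg-4, of the intrinsically disordered P granule proteins, had 26.2 ± 9.42 and 171 ± 33.2 in that order. Of 22 tested replication and cell cycle genes 8 rose and 0 fell by edgeR. At an unadjusted p under 0.05, and by DESeq2 or limma-voom, 0 were lower. Of the 18 past the level of the filter in both groups 6 rose, a like share to the 531 of all 1708 coding genes past it. With wild type G to I as controls, 14 of 24 replication and cell cycle genes rose and 1 fell. The kinetochore genes knl-1 and hcp-4 had 421 ± 74.4 and 483 ± 101 CPM in DPF-3 S784A, and 237 ± 33.8 and 291 ± 20.3 CPM in wild type.

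The counts of rises differed between control sets. Scaled to all reads counted, 14 of the 30 germline genes rose. Against wild type G to I, 15 of 37 germline and maternal genes rose and 8 fell. Against all 9 wild-type libraries, 11 of 43 rose and 1 fell. Of 24 tested proteasome genes 10 rose and 0 fell by edgeR against wild type A to F (0 lower at an unadjusted p under 0.05 and by DESeq2 or limma-voom), and of 25 against G to I 1 rose and 1 fell. Of the 24, 10 passed the filter through DPF-3 S784A alone, and 6 of the 11 past it in both groups rose. Against all 9 wild-type libraries 2 of 29 proteasome genes rose. The catalytic subunit gene pbs-5 had 140, 158 and 185 CPM in DPF-3 S784A against 56.4 to 97.6 CPM in wild type A to F (log2 fold change 1.15), and 0.03 on the log2 scale against G to I. The deubiquitinase gene rpn-11 had values of 0.81 and 0.24 in that order, and the second did not pass the test. Of 27 tested cytosolic ribosomal protein genes 12 rose and 1 fell against A to F, and of 32 against G to I 7 rose and 5 fell. DESeq2 called 4 ribosomal protein genes higher, scaling to all reads counted 6, and the fit against all 9 wild-type libraries 5 of 52. rpl-16 had 105 ± 17.4 CPM in DPF-3 S784A and 42.8 ± 12.9 in wild type A to F, and the exception rpl-11.2 rests on 3 counts in DPF-3 S784A, with a wild-type level 9.49 times as high (exact 95% interval 3.17 to 46.7, counting error only). Of the 27 ribosomal protein genes 18 passed the level of the filter in DPF-3 S784A alone.

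Of 13 tested ERGO-1 targets, 6 rose and 2 fell (median 0.22), and against wild type G to I 12 of 14 rose and 2 fell. Y43F8B.9 had 1157, 1496 and 1141 CPM in DPF-3 S784A against 624 to 752 CPM in wild type A to F (log2 fold change 0.88), and F55C9.3 had 1550 ± 136 and 1041 ± 59.0 in that order. C08F11.7 went the other way, with 103, 22.5 and 70.1 CPM in DPF-3 S784A against 1038 to 1134 CPM in wild type (log2 fold change -3.95, SE 0.18, adjusted p = 9.95e-48). Y17D7B.4 had 21363, 21868 and 22752 CPM in DPF-3 S784A against 25922 to 28133 CPM in wild type, with no overlap (log2 fold change -0.29, SE 0.06, adjusted p = 1.27e-05). This direction flips with libraries scaled to feature totals, where Y17D7B.4 was higher in DPF-3 S784A (log2 fold change 0.45, adjusted p = 1.45e-13).

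F-box genes, which encode substrate adaptors of ubiquitin ligases and form large duplicated families in the worm, had more falls than rises. Of 170 F-box A genes 37 were tested, of which 29 fell and 1 rose, and of the 18 past the level of the filter in both groups 15 fell and 1 rose (median -1.50). fbxa-218 had 73.7, 101 and 102 CPM in DPF-3 S784A against 994 to 1157 CPM in wild type (log2 fold change -3.53), and fbxa-67 had 864 ± 82.2 and 2730 ± 188 CPM in that order. Of 10 tested F-box B genes, among them fbxb-97 of the WAGO list, 7 fell and 0 rose by edgeR, with 0 higher at an unadjusted p under 0.05 and by DESeq2 or limma-voom. Of the 10, 5 passed the filter through wild type alone, and of the 5 past it in both groups 4 fell (median -1.75). fbxb-14 had 523, 472 and 606 CPM in DPF-3 S784A against 2692 to 2910 in wild type. Of 6 tested F-box C genes 3 fell, 2 of them past the level of the filter in both groups, among them fbxc-43 with 1057 ± 46.5 CPM in DPF-3 S784A and 2089 ± 114 in wild type. MATH and BTB domain genes, another adaptor family, had 13 falls and 3 rises among 24 tested, with bath-20 at 1820 ± 74.3 CPM in DPF-3 S784A and 5408 ± 500 in wild type. Of the 13 past the level of the filter in both groups 6 fell and 2 rose (median -0.62). Against wild type G to I, 9 of 30 F-box A genes rose and 14 fell, 1 of 7 F-box B genes rose and 6 fell, and fbxa-67 did not pass the test there (log2 fold change -0.18). Members of these families resemble each other, so reads may be split between them.

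Collagens, the main proteins of the cuticle, had lower summed levels in DPF-3 S784A. Over all 156 col genes the sum was 192 to 360.0 CPM in DPF-3 S784A and 4017 to 4683 CPM in wild type. The 9 that were tested passed the filter through wild type alone, which favours a fall, and all 9 fell. col-111 had 7.37, 22.5 and 0 CPM in DPF-3 S784A against 1034 to 1169 CPM in wild type. On 3 counts in DPF-3 S784A, its wild-type level was 143 times as high (exact 95% interval 48.8 to 693). col-71 had 29.7 ± 24.7 CPM in DPF-3 S784A and 1157 ± 137 in wild type. No tested member came from the other 20 cuticle genes listed. The 5 collagens tested against wild type G to I all fell.

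Several lists passed the filter mostly through 1 group, which favours a difference in those members but does not force a call. Of 15 tested nuclear hormone receptor genes 7 fell and 1 rose, but 10 passed through wild type alone and 2 through DPF-3 S784A alone, and of the 3 past that level in both groups 1 fell and 1 rose. nhr-15 had 59.0, 45.0 and 102 CPM in DPF-3 S784A against 2275 to 2682 CPM in wild type (log2 fold change -5.08). The calponin family gene cpn-4 had 29.5, 11.2 and 19.1 CPM in DPF-3 S784A against 990 to 1204 in wild type (log2 fold change -5.66). The list of 22 muscle genes had 6 tested, of which act-1, ketn-1 and unc-54 rose and cpn-4 fell. Of the 6, 4 passed the filter through DPF-3 S784A alone and cpn-4 through wild type alone, which leaves unc-54. Against all 9 wild-type libraries cpn-4 fell and unc-54 had an adjusted p of 0.0785. unc-54, the body wall myosin, had 192, 428 and 363 CPM in DPF-3 S784A against 118 to 207 CPM in wild type, and its groups overlapped. Of 6 C-type lectins 4 fell and 1 rose, with 1 member, which fell, past the level of the filter in both groups. Of 6 chemoreceptors 4 fell and 1 rose (2 fell by DESeq2), with no member past it in both. clec-12 had 21.2 ± 1.85 CPM in DPF-3 S784A and 144 ± 40.9 in wild type, clec-238 had 41.2 ± 24.5 and 176 ± 22.7, and srt-43 had 26.7 ± 13.6 and 366 ± 22.8, each in that order. sra-35 rests on 1 count in DPF-3 S784A, with a wild-type level 50.2 times as high (exact 95% interval 8.92 to 1994). The 2 tested neuron genes, egl-21 and ida-1, fell (1 of them by DESeq2), and both passed the filter through wild type alone. Of 35 spermatogenesis genes 1 was tested.

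Of 50 tested core and linker histone genes 15 rose and 8 fell (median 0.18), and of the 34 past the level of the filter in both groups 13 rose and 4 fell. The share that fell, 16.0%, stood beside 26.3% of all protein-coding genes tested. The linker histone gene his-24 had 944, 1024 and 810 CPM in DPF-3 S784A against 6162 to 8702 CPM in wild type (log2 fold change -3.0), and hil-3 had 251, 326 and 306 CPM against 1262 to 1495 (-2.24). Another linker gene, hil-8, had 2557 ± 114 CPM in DPF-3 S784A and 4563 ± 247 in wild type, while hil-4 and hil-5 rose by 0.68 and 0.74 on the log2 scale. Against wild type G to I, 32 of 39 histone genes rose and 5 fell, with his-24 still at -2.02. Core histone genes have near-identical copies, so their separate counts are uncertain.

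The list of peptidase and N-terminal processing genes, dpf-3 included, had 5 tested members, of which 1 rose. app-1, an aminopeptidase P gene, had 125, 45.0 and 121 CPM in DPF-3 S784A against 36.0 to 68.3 CPM in wild type, with overlapping groups (log2 fold change 0.99, SE 0.31, adjusted p = 0.00334). That call was lost without DPF-3 S784A A (adjusted p = 0.0787) or C (adjusted p = 0.112). The methionine aminopeptidase gene map-2 had 73.6 ± 19.9 CPM in DPF-3 S784A and 65.5 ± 13.3 in wild type and did not pass the test.

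**Figure D4:**
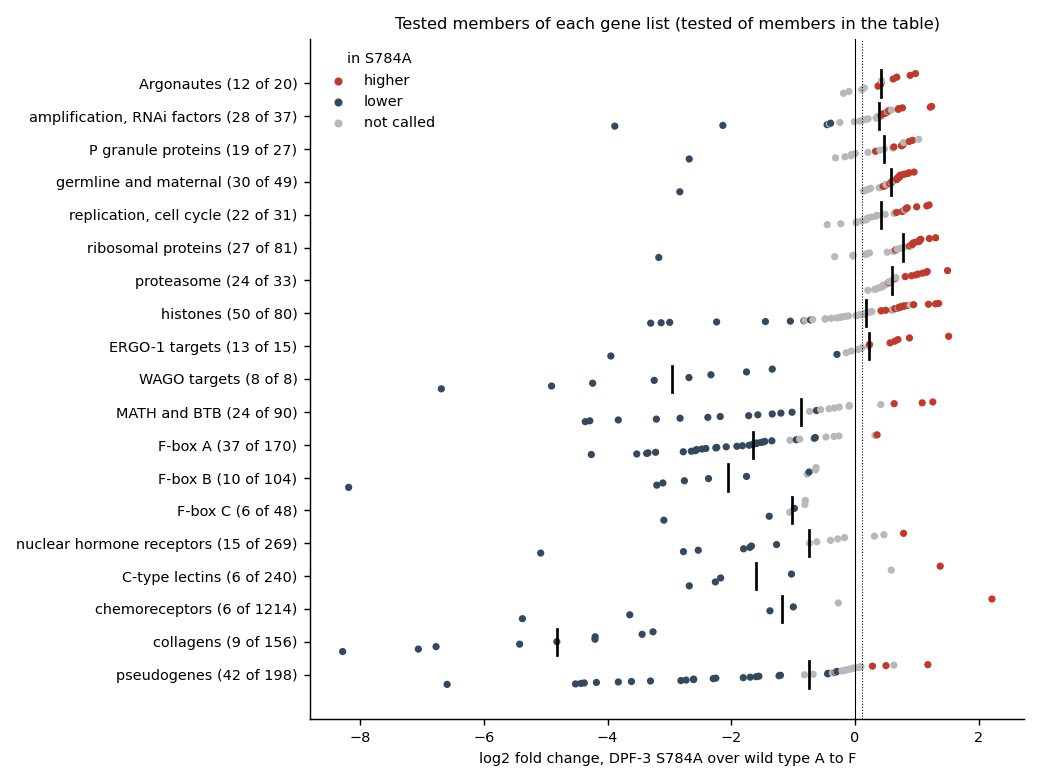
Log2 fold change of DPF-3 S784A over wild type A to F for the tested members of 19 gene lists (tested of members in the table); each point is a gene, points of genes with no count in DPF-3 S784A depend on the prior count, bars are list medians, the solid line is 0 and the dotted line the median of all features, 0.11. All 8 WAGO targets and all 9 collagens lie left of 0, and the Argonautes lie between -0.19 and 0.98.

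The gene with the largest rise in fold was ugt-29, a UDP-glucuronosyltransferase gene. It had 66.3, 45.0 and 38.2 CPM in DPF-3 S784A against 5.24 to 10.3 CPM in wild type, on 19 and 14 counts (log2 2.48, SE 0.47, adjusted p = 2.96e-06). str-245, a chemoreceptor gene that lies beside unc-54 on chromosome I, had 59.0, 56.2 and 38.2 CPM in DPF-3 S784A and 5.14 to 20.5 in wild type. At ugt-29 and str-245 every wild-type library was below the level of the filter. They passed through DPF-3 S784A alone, as did 662 of the 3215 coding genes tested, which favours a rise. lsl-1, a zinc-finger gene of the germline, rests on more reads, with 228, 191 and 204 CPM in DPF-3 S784A against 34.5 to 77.4 CPM in wild type (log2 fold change 2.03, SE 0.25, adjusted p = 8.87e-13). F09E5.12, the nucleoporin gene npp-23, C50B8.5, the ESCRT gene vps-20 and B0035.15 followed, with log2 fold changes of 1.67 to 2.06. Of these, at least C50B8.5, with at most 24.65 CPM in wild type, also passed the filter through DPF-3 S784A alone. B0035.15 no longer passed against all 9 wild-type libraries (adjusted p = 0.11).

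In CPM the largest rises were at genes already high in wild type. pals-26, of a family named for a shared ALS2CR12 signature, had 20847, 18617 and 19495 CPM in DPF-3 S784A against 10834 to 14956 CPM in wild type (log2 fold change 0.68, SE 0.06, adjusted p = 9.77e-20). Y47H10A.5 had 15009, 12554 and 14796 CPM in DPF-3 S784A and 6514 to 8494 in wild type, and Y37E3.30 had 9975 ± 454 and 7051 ± 484 in that order. cls-2, which encodes a microtubule-binding CLASP protein, and the SET domain gene set-9 rose by log2 fold changes of 0.54 and 0.46. Against all 9 wild-type libraries taken as 1 group, pals-26, Y37E3.30, set-9, prg-1 and Y43F8B.9 no longer passed the test, with adjusted p of 0.0767 to 0.274.

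Genes were also split by chromosome and position, after the values were seen. Of 181 tested X genes 10 rose and 95 fell (median -0.85), and of 3081 tested autosomal genes 25.4% rose and 25.2% fell (median 0.29). Past the level of the filter in both groups, 8 of 92 X genes rose and 40 fell, with a median of -0.39. Set against G to I, 41 X genes rose and 64 fell, and scaled to feature totals the X median was -0.12 and the autosomal one 1.02. On X the falls included F59C12.4, his-24, hil-3, R09H3.3 (206 ± 40.6 CPM in DPF-3 S784A and 2955 ± 170 in wild type) and pks-1, a polyketide synthase gene (197 ± 45.4 and 1620 ± 103). Of autosomal genes within 0.25 of a chromosome's length from either end, 262 of 1373 rose and 484 fell, and of those nearer the middle 522 of 1708 rose and 292 fell. Past the level of the filter in both groups, 184 of 705 nearer the ends rose and 186 fell, and 341 of 941 nearer the middle rose and 102 fell. Of genes known by a sequence name alone 159 of 1074 rose and 474 fell, and of genes with a given name 635 of 2188 rose and 397 fell. Past that level in both groups, 93 of 500 and 440 of 1238 rose, and 173 and 155 fell, in that order. Of 85 genes with a mean over both groups above 1000 CPM, all past that level in both groups, 15 rose and 61 fell. Between 100 and 300 CPM 322 of 876 genes rose and 259 fell, and 320 rose and 118 fell of the 733 past it in both.

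Against the dpf-3 null, fewer features were called, in a comparison of 3 libraries with 3 that has less power than one with 6 of wild type. Of 4558 features tested in 1 fit of 12 libraries, 117 (2.57%) were higher and 34 (0.746%) lower in DPF-3 S784A. At an unadjusted p under 0.05 by edgeR 363 were higher and 244 lower, and with DESeq2 size factors 173 and 27 were called. The comparisons of both mutants with wild type share the 6 wild-type libraries, so only the direct difference was tested. The 38 intervals called were all higher in DPF-3 S784A, with 8 lower at an unadjusted p under 0.05. Of the 117 features, 93 were lower in the null than in wild type and 57 lower in DPF-3 S784A than in wild type. By edgeR 0 of 12 Argonaute genes were called, with 1 higher and 1 lower at an unadjusted p under 0.05, and 0 of 30 RNAi factors, with 1 higher and 4 lower. With DESeq2 size factors 1 gene of each list was called higher. Of 8 WAGO targets 3 were higher, as were 4 of 10 F-box B genes, and of 14 ERGO-1 targets 4 were higher and 3 lower. C38D9.2 had 457, 510 and 455 CPM in DPF-3 S784A against 240, 247 and 290 CPM in the null (log2 difference 0.87, adjusted p = 6.82e-05), and saeg-2 had 223 ± 74.2 and 223 ± 51.8. The 4 intervals of chromosome V at 17132108, 17137383, 17142308 and 17421682 were higher in DPF-3 S784A than in the null, with log2 differences of 0.62 to 0.83.

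The gene dpf-3 itself had 88.1, 94.8 and 122 CPM in DPF-3 S784A against 10.1, 4.33 and 5.36 CPM in the null (log2 difference 3.78, adjusted p = 8.90e-10). Of 6 muscle genes tested against the null, unc-54 and ketn-1 were higher in DPF-3 S784A and 4 were not called, with a median difference of 0.09. With only the libraries of these mutants in the fit 1 of the 6 was called. unc-54 had 208, 450 and 387 CPM in DPF-3 S784A against 105, 104 and 102 CPM in the null (log2 difference 1.71), and ketn-1, which encodes the actin-binding protein kettin, had 88.8 ± 27.0 and 15.3 ± 2.05 (2.54). Near unc-54, str-245 had 54.7 ± 12.3 CPM in DPF-3 S784A and 12.5 ± 10.9 in the null. At 2 F-box genes the mean of DPF-3 S784A lay between those of the null and wild type: fbxb-95 had 52.9 ± 16.2 CPM in DPF-3 S784A, 4.04 ± 3.56 in the null and a mean of 87.7 in wild type, and fbxa-166 had 173 ± 58.7, 34.1 ± 12.7 and 234 in that order.

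Of 4 long intergenic intervals on chromosome II, II:2001893-2010149 had 328 ± 73.4 CPM in DPF-3 S784A and 66.7 ± 7.38 in the null, and the others (II:850782-857896, II:1969835-1977129 and II:2593083-2600283) had log2 differences of 2.24 to 2.43. Intervals of 529 bases at V:20299713-20300241, V:20309607-20310135 and IV:1719757-1720285 had log2 differences of 2.96 to 3.04, but as they share a length they may share reads. Lower in DPF-3 S784A than in the null were nhr-229, with 24.0, 35.6 and 27.2 CPM in DPF-3 S784A against 138, 117 and 113 CPM in the null (log2 difference -2.13), and B0001.5, with 103 ± 63.0 and 342 ± 50.5. Means of wild type A to F were 73.9 CPM at nhr-229 and 729 CPM at B0001.5. Y36E3A.2 had 341 ± 72.6 CPM in DPF-3 S784A, 799 ± 118 in the null and a mean of 403 in wild type. Also lower in DPF-3 S784A than in the null were the SUMO gene smo-1, the zinc-finger gene lin-13, the polo-like kinase gene plk-3 and sid-1, the channel for double-stranded RNA, with log2 differences of -1.70, -0.64, -0.72 and -0.58. Over wild type A to F, log2 fold changes of the null at these genes were 0.53, 0.89, 0.97 and 1.07, in that order. Those of DPF-3 S784A were -1.17, 0.25, 0.25 and 0.49.

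**Figure D5:**
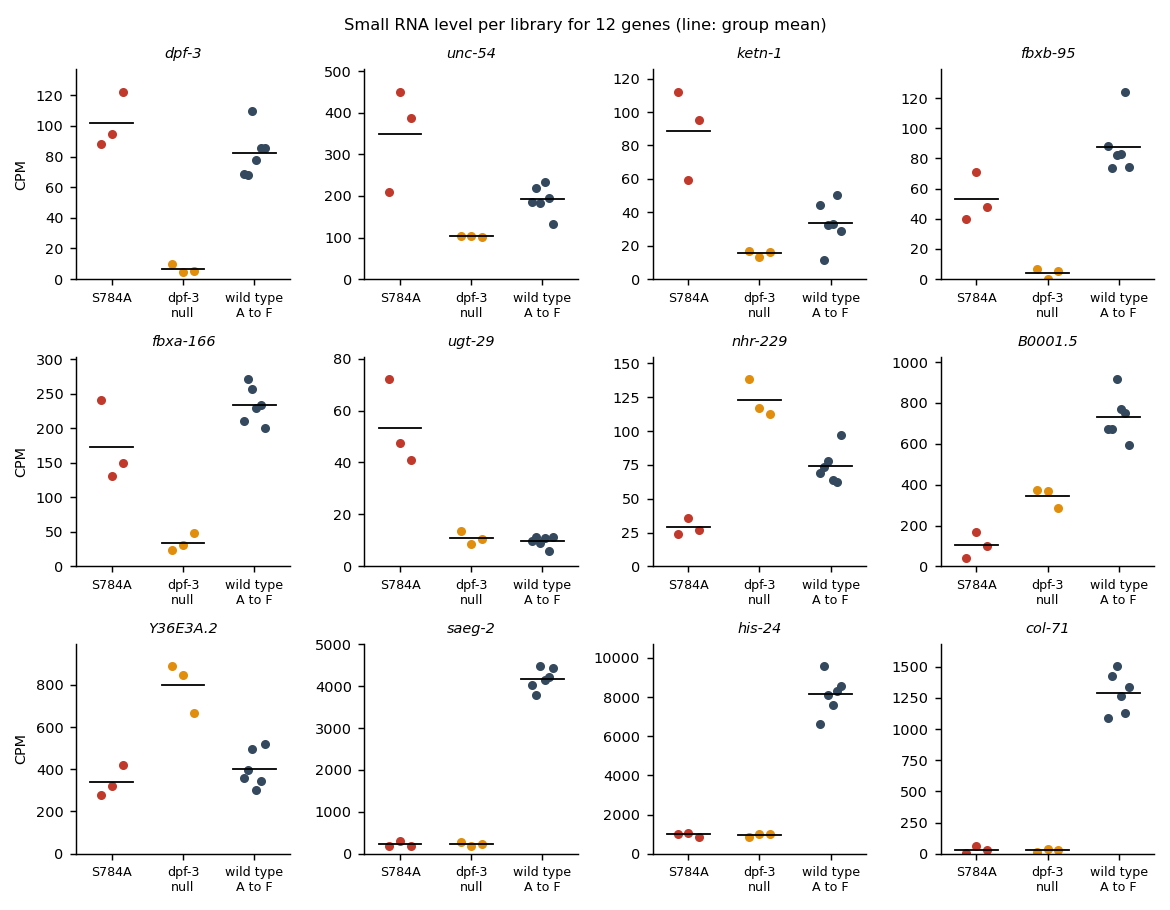
CPM of 12 genes in each library of DPF-3 S784A (3), the dpf-3 null (3) and wild type A to F (6), on the scale of the fit of 12 libraries; lines are group means and each axis starts at 0. DPF-3 S784A lies above the null at dpf-3, unc-54, ketn-1, fbxb-95, fbxa-166 and ugt-29, below it at nhr-229, B0001.5 and Y36E3A.2, and beside it, far under wild type, at saeg-2, his-24 and col-71.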

How the data were processed

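The authors deposited 1 table of raw counts per feature and library, whole numbers used here as deposited. The submitters' processing notes name cutadapt 2.3, Bowtie 1.2.3, SAMtools 1.9, HTSeq 0.11.2 and the ce11 assembly, without their roles. The sources used here give neither the strand setting nor the handling of reads with several positions, of molecular identifiers or the origin of the intervals. Intervals were read as 1-based and placed with the Ensembl WBcel235 annotation (the ce11 assembly), which held 20055 of the 20134 gene identifiers.

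DPF-3 S784A (3 libraries) was set against wild type A to F (6), and against the dpf-3 null (3) in a fit of these 12, with edgeR 4.0.16 (quasi-likelihood, TMM, filterByExpr) in R 4.3.3. The filter asked for 42.9 CPM in at least 3 libraries, with counts divided by feature totals before TMM scaling. The features kept held 86.7% to 91.8% of feature counts. TMM factors were 1.38 to 1.42 in DPF-3 S784A and 0.832 to 0.858 in wild type. In the TMM-scaled CPM printed here, the level of the filter is therefore below 42.9 in DPF-3 S784A and above it in wild type. Subsets past this level in either group or in both rest on that unequal level. Adjusted p is Benjamini-Hochberg over all features tested, and a feature is called at under 0.05. Shares were compared by exact 2-sided permutation tests (scipy 1.17.1). As alternatives, DESeq2 1.42.0 and limma 3.58.1 (voom) were run, and the code was tested on simulated data. Tables and figures used Python 3.11.15, pandas 2.3.3 and matplotlib 3.10.9.

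Features named are called ones of at least 10 CPM with groups apart: the 8 genes and 4 intervals with the largest fold rise and as many with the largest fall, and the 8 largest rises and falls in CPM. The 2 smallest p of each list with 5 or more tested members, dpf-3, wago-1 and ppw-2 were added. Others were chosen after their values were seen: B0261.8, xol-1, csr-1, wago-4, rde-1, ergo-1, eri-3, drh-1, parn-1, rde-12, egl-21, ida-1, hil-8, hil-4, hil-5, R09H3.3, pks-1, Y17D7B.4, map-2, the hosts of intronic intervals, and all features of the comparison with the null outside the rule. Members and lists were chosen with earlier results of these data known. Of 340 list names written, 318 were found in the table. Read intervals and bounds cover counting error only.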

Additional observations from a re-analysis of the deposited data

Results flagged for a closer look

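In 4 of 96 groups of 6 wild-type libraries checked, 1 library stood far from the other 5, and chance alone gives about 1 group in 20. C50B8.5 had 5.12 CPM in wild type F and 18.2 to 24.6 CPM in the others. F49E11.2 had 128 CPM in wild type B, with 95.6 to 104 CPM in the others. fbxc-43 had 2305 CPM in wild type F and 1993 to 2096 CPM in the others. The interval V:5185266-5189607 had 3694 CPM in wild type A and 4067 to 4254 CPM in the others.

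For 19 of the named features DPF-3 S784A differed from the dpf-3 null in the direct test (edgeR quasi-likelihood, adjusted p under 0.05 over 4558 features). The log2 difference, DPF-3 S784A minus null, was 3.78 at dpf-3, 2.40 at clec-238, 2.19 at ugt-29, 1.89 at str-245 and 1.71 at unc-54. It was 1.62 at V:13135215-13135930 and 0.87 at C38D9.2. Large intervals that fell against wild type were higher than in the null, by 0.83 at V:17421682-17428709, 0.74 at V:17132108-17137381, 0.63 at V:17137383-17141676 and 0.54 at IV:913372-921243. The F-box gene fbxb-14 differed by 0.52. Genes with large rises in CPM differed by 0.42 at Y47H10A.5, 0.40 at pals-26, 0.39 at Y43F8B.9, 0.36 at Y37E3.30 and 0.30 at cls-2, and the ERGO-1 target F55C9.3 by 0.37. At rnh-1.3 DPF-3 S784A was lower than the null, with a log2 difference of -0.45.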

How the results depend on the processing

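The count of rises moved more than the count of falls. Against wild type A to F, 811 features rose with the settings of the report, 2074 scaled to feature totals, 518 by DESeq2, 338 against all 9 wild-type libraries, 316 with counts thinned to the smallest total and 225 with no filter. Falls numbered 1340, and 489 after thinning, which leaves fewer counts. Leaving out 1 library gave 434 to 875 rises and 1286 to 1408 falls. Rises numbered 434 without DPF-3 S784A C, and 552 and 574 without A and B. Against the null 117 features were higher and 34 lower, with 50 higher when no filter was used, and 74 to 121 higher and 21 to 41 lower when 1 library was left out (74 higher without DPF-3 S784A C and 21 lower without A). The cause was not tested.

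Of all reads counted, the share of protein-coding genes differed by -7.49 points. Against wild type G to I the differences were 7.30 points for protein-coding genes, 0.334 for pseudogenes, -2.27, -1.64 and -3.71 for intergenic, intronic and exon-overlapping intervals, 28.7 for reads in no feature and 5.89 for the 100 highest features, each with p = 0.1, the smallest that an exact permutation test of 3 against 3 allows. Without 1 library the differences against A to F were 13.13 to 13.33 points for protein-coding genes, -0.499 to -0.375 for pseudogenes, -4.21 to -4.15 for intergenic, -2.48 to -2.44 for intronic and -6.22 to -6.14 for exon-overlapping intervals. They were 12.9 to 13.7 points for reads in no feature, -3.84 to -3.52 for the 100 highest features and 499 to 600.4 features seen. Features seen were not compared with G to I.

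Same-lettered deviations of DPF-3 S784A and wild type correlated at 0.0136, 0.0114 and 0.00684. No pairing by letter showed, but counting noise at low features could hide one, and the null was not checked in this way. With the replicate block over libraries A to C 610 features rose and 1041 fell, against 630 and 1044 without it, and in the comparison with the null 84 were higher and 25 lower, against 109 and 29 without it. For the 84 named features, 1672 values over 21 settings kept their direction and side of the threshold, 30 lost the call and 2 gained it, both at dpf-3 (log2 fold change 1.11 scaled to feature totals and 0.92 against G to I). Features not tested in a setting gave no value there. Most of the 84 were named for their calls or small p in these same libraries, so much of this was fixed in advance. Outside the 84, Y17D7B.4, parn-1 and rde-12 turned sign when scaled to feature totals. The call of app-1 was lost without DPF-3 S784A A or C. The 62715 to 113444 feature counts of a DPF-3 S784A library limit the precision at low features.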
